A study of Homo sapiens with 18 samples.

Results

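The 6 libraries described here are the cytoplasmic RNA libraries of the hairpins SH2 and SH3, 3 of each, out of 18 libraries in the series. They were taken by their labels, as the input (IN) libraries of those treatments, with earlier results of these data known. The 3 scramble (SC) input libraries are given for reference. All come from MDA-MB-231 cells, a widely used line derived from a triple-negative (hormone receptor and HER2 negative) breast cancer with mesenchymal traits. SH2 and SH3 are short hairpin RNAs against the fibrillarin mRNA, and SC is read here as the scramble hairpin that the protocols name as control. All 3 treatments were delivered by lentiviral transduction with puromycin selection. All cells were briefly exposed to cycloheximide before lysis, so the controls share the virus, the drug selection and the translation block. Which of the numbered knockdowns in the protocols corresponds to SH2 and which to SH3 is not stated, so the label names are kept. The labels do not say whether the 3 replicates of a treatment came from separate transductions, so p-values measure the spread between these libraries, which may be in part technical. The series also holds ribosome footprint libraries of the same lysates, which are used below beside the genes named from RNA.

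Fibrillarin, encoded by FBL, is a nucleolar enzyme that methylates the ribose of ribosomal RNA within small nucleolar ribonucleoproteins of the box C/D class. Its guide RNAs choose the sites, and the same particles help to cut the ribosomal RNA precursor. Both hairpins are directed at this mRNA, so a comparison of SH2 with SH3 asks which genes differ between the hairpin treatments rather than from the control.

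Total counts were 23469830 to 27629488 per library over SH2 and SH3, and 14566 to 14963 of 17017 gene symbols had at least 1 count. Log2 CPM (counts scaled to library size) correlated across genes at 0.990 to 0.992 among the SH2 libraries, 0.992 to 0.995 among the SH3 libraries, and 0.967 to 0.978 between them. Of 10 markers of mesenchymal breast carcinoma lines, the summed level was 9311 to 10350 CPM in SH2 and 7312 to 8291 CPM in SH3, with 5 markers called higher and 2 called lower in SH2 (the call rule is given below). The 7 leukocyte markers summed to 8.92 to 13.6 CPM in SH2 and 8.24 to 13.1 CPM in SH3, 1 of them at 0 in all 9 RNA libraries. The 5 endothelial markers summed to 8.75 to 11.1 and 10.4 to 11.3 CPM. The 10 luminal epithelial markers, which include keratins that this line also makes, summed to 1538 to 1850 CPM in SH2 and 1611 to 1853 CPM in SH3, with 2 called higher and 3 under 1 CPM in all 9 libraries. Much of the mesenchymal sum was VIM, with a mean of 6581 CPM in SH2 and 4704 CPM in SH3, and SPARC was under 1 CPM in all 9 libraries. The leukocyte and endothelial sums were low in every library, and the luminal sum was not. Mitochondrially encoded RNA took 2.52% to 3.30% of the counts in SH2 and 3.63% to 5.08% in SH3, without overlap, and its part in the results below was not tested.

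The target was low with both hairpins. FBL was at 1.26, 4.52 and 11.2 CPM in SH2, at 3.36, 4.15 and 2.95 CPM in SH3, and at 395, 349 and 421 CPM in SC. The means were 1.46% and 0.898% of the SC mean. The hairpin groups overlapped, and the log2 difference of 0.72 (SE 0.47), SH2 minus SH3, had an adjusted p of 0.242 in edgeR's quasi-likelihood test. This value rested on single SH2 libraries: without SH2 replicate 3 it was -0.25, and without SH2 replicate 1 it was 1.18 and passed the threshold. In bulk RNA, fewer cells that hold an mRNA and less of it per cell cannot be told apart, here and below.

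Although FBL was reduced with both, the hairpins left many other mRNAs at different levels. A gene is said to be called when its Benjamini-Hochberg adjusted p from edgeR's quasi-likelihood test was under 0.05, and higher or lower always means SH2 relative to SH3. Of 12710 genes tested, 4993 were called (39.3%), of which 2400 were higher in SH2 (18.9% of the genes tested) and 2593 were lower (20.4%). Most of these differences were small: the median absolute log2 difference of the called genes was 0.59, and 955 had one of at least 1. The median over all genes tested was 0.0047, so the comparison was centred near 0. With such a background, a gene list with about 4 in 10 members called does not stand out by its count.

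The 12 genes with the highest SH2 to SH3 ratio, among called genes of at least 5 CPM whose groups do not overlap, included secreted and signalling proteins. PRSS2, a trypsinogen whose reads can be shared with near-identical paralogs, was at 162, 266 and 266 CPM in SH2, at 20.2, 21.9 and 21.8 CPM in SH3, and at 11.5, 13 and 12.2 CPM in SC. Its log2 difference was 3.44 (SE 0.17, adjusted p = 3.59e-08). IL1B, the inflammatory cytokine interleukin-1 beta, was at 40.1, 49.3 and 29.4 CPM in SH2 and at 7.68, 3.94 and 3.64 CPM in SH3, with SC between them at 16.1, 18.2 and 10.5 CPM. IL1RAP, the accessory chain of the interleukin-1 receptor, was also higher, at 21.7, 20.5 and 16.6 against 6, 3.44 and 3.45 CPM, a log2 difference of 2.19 (SE 0.22). MMP1, the interstitial collagenase, was at 528, 541 and 347 CPM in SH2 and at 91.4, 52.1 and 46.4 CPM in SH3. Its SC libraries were uneven, at 967, 162 and 212 CPM, and its log2 difference of 2.90 had an SE of 0.53 (adjusted p = 7.77e-04). TNFRSF11B (osteoprotegerin, a decoy receptor), the trefoil peptide TFF2, the protease inhibitor SPINK4, MPP4 and ARHGAP30 had log2 differences of 2.23 to 2.67.

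For other genes of this set SH2 stood near SC and SH3 stood apart. SLC25A24, a mitochondrial carrier of ATP-magnesium and phosphate, was at 156, 148 and 146 CPM in SH2 and at 138, 165 and 161 CPM in SC, but at 16.2, 21.6 and 20.7 CPM in SH3. TMEM30A, the subunit that lipid flippases need to leave the endoplasmic reticulum, was at 81.6, 104 and 74.7 CPM in SH2, at 65.1, 84.5 and 68.6 CPM in SC, and at 10.9, 13.5 and 11 CPM in SH3. In both genes every SH3 library was far below all 6 others. The log2 differences were 2.94 (SE 0.12) for SLC25A24 and 2.88 (SE 0.15) for TMEM30A. The SC mean was nearer to SH2 for 8 of the 12 genes and lay between the hairpin means for 10.

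Among the 12 genes with the lowest ratio the SC mean was more often nearer to SH3, and SH3 was within 0.25 of SC on the log2 scale for 5 of them. RIDA, a deaminase of reactive imines, was at 1.26, 2.97 and 1.81 CPM in SH2, at 15.7, 16.9 and 15.1 CPM in SH3, and at 13.3, 15.2 and 13.8 CPM in SC, a log2 difference of -2.97 (SE 0.22, adjusted p = 3.75e-07). DDAH1, which degrades methylated arginines, was at 10.7, 7.83 and 9.21 CPM in SH2 against 69.9, 59.7 and 64.1 CPM in SH3. OCLN, the tight junction protein occludin, was at 4.08, 3.80 and 3.06 CPM against 26.4, 20.9 and 21.1 CPM. PAIP2, an inhibitor of poly(A)-binding protein, was at 18, 25 and 17.1 CPM in SH2, 108, 97.1 and 100 CPM in SH3, and 64.0, 82.5 and 74.0 CPM in SC, so here SC lay between. The others were ZC4H2, MGAM, HDDC2, ZNF354A, SP140, DIPK1A, the cullin adaptor KLHL12 and the intramembrane protease SPPL2A, with log2 differences from -2.58 to -2.15. The SC mean was nearer to SH3 for 10 of these 12 genes and between the hairpin means for 8. In the plot of CPM by library, the SH2 and SH3 points of each gene are separate because genes with overlap were left out. The SC points lie between them or beside either group.

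**Figure D1:**
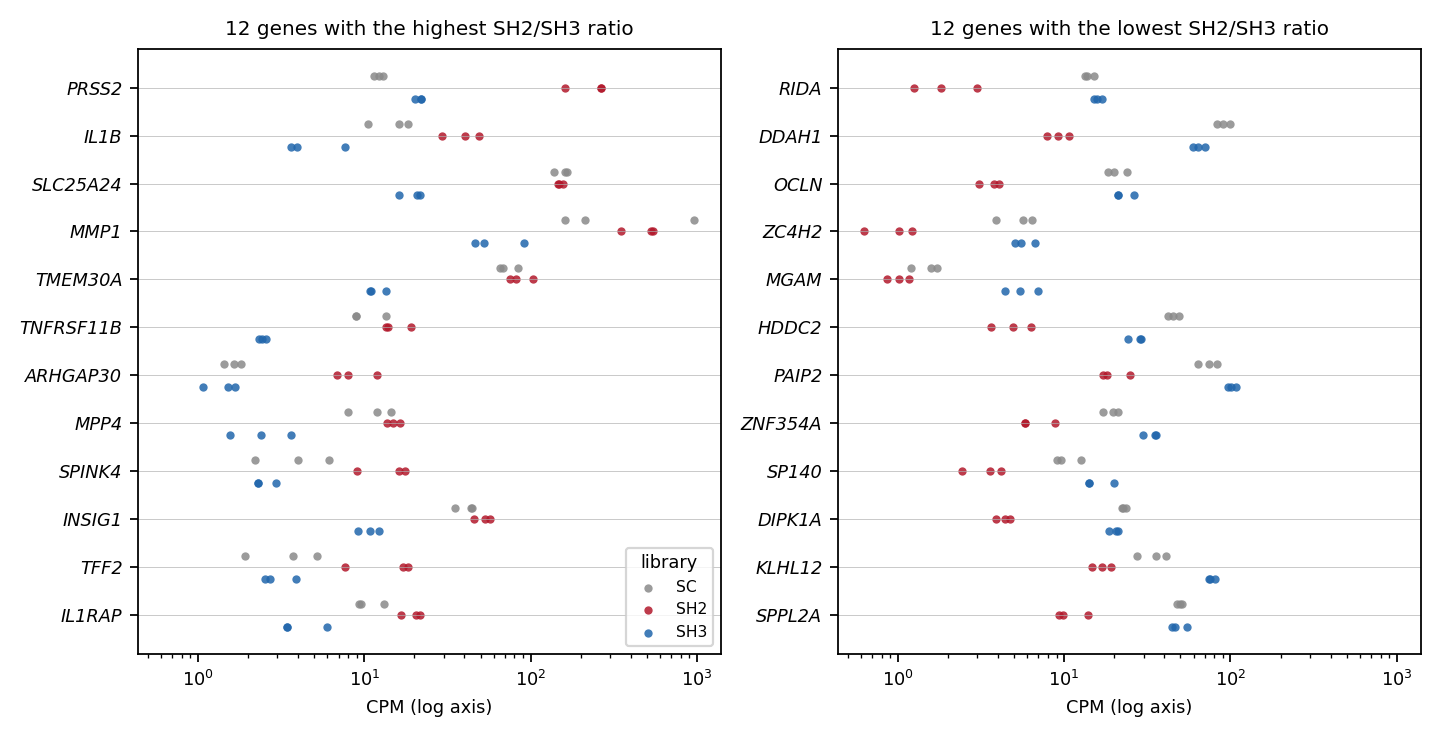
CPM in each of the 9 RNA libraries (log axis) for the 12 genes with the highest and the 12 with the lowest SH2 to SH3 ratio among called genes of at least 5 CPM without overlap, 1 point per library. RIDA at 1.26 to 2.97 CPM in SH2 and SLC25A24 at 16.2 to 21.6 CPM in SH3 each stand apart from the other hairpin and from SC.

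The differences were then read by pathway, over 44 gene lists of 1554 different symbols, 1512 of them in the table. DNA repair by homologous recombination and DNA replication were lower in SH2 than in SH3 across most of their members. Hypoxia, glycolysis, fatty acid synthesis, NOTCH and WNT, integrin and inflammatory lists had more members higher in SH2. The mitosis, cytosolic ribosomal protein and replication-dependent histone lists had the lowest shares of called members. The bar plot of called shares orders the lists from 75.8% called (homologous recombination and Fanconi) to 11.1% (replication-dependent histones).

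**Figure D2:**
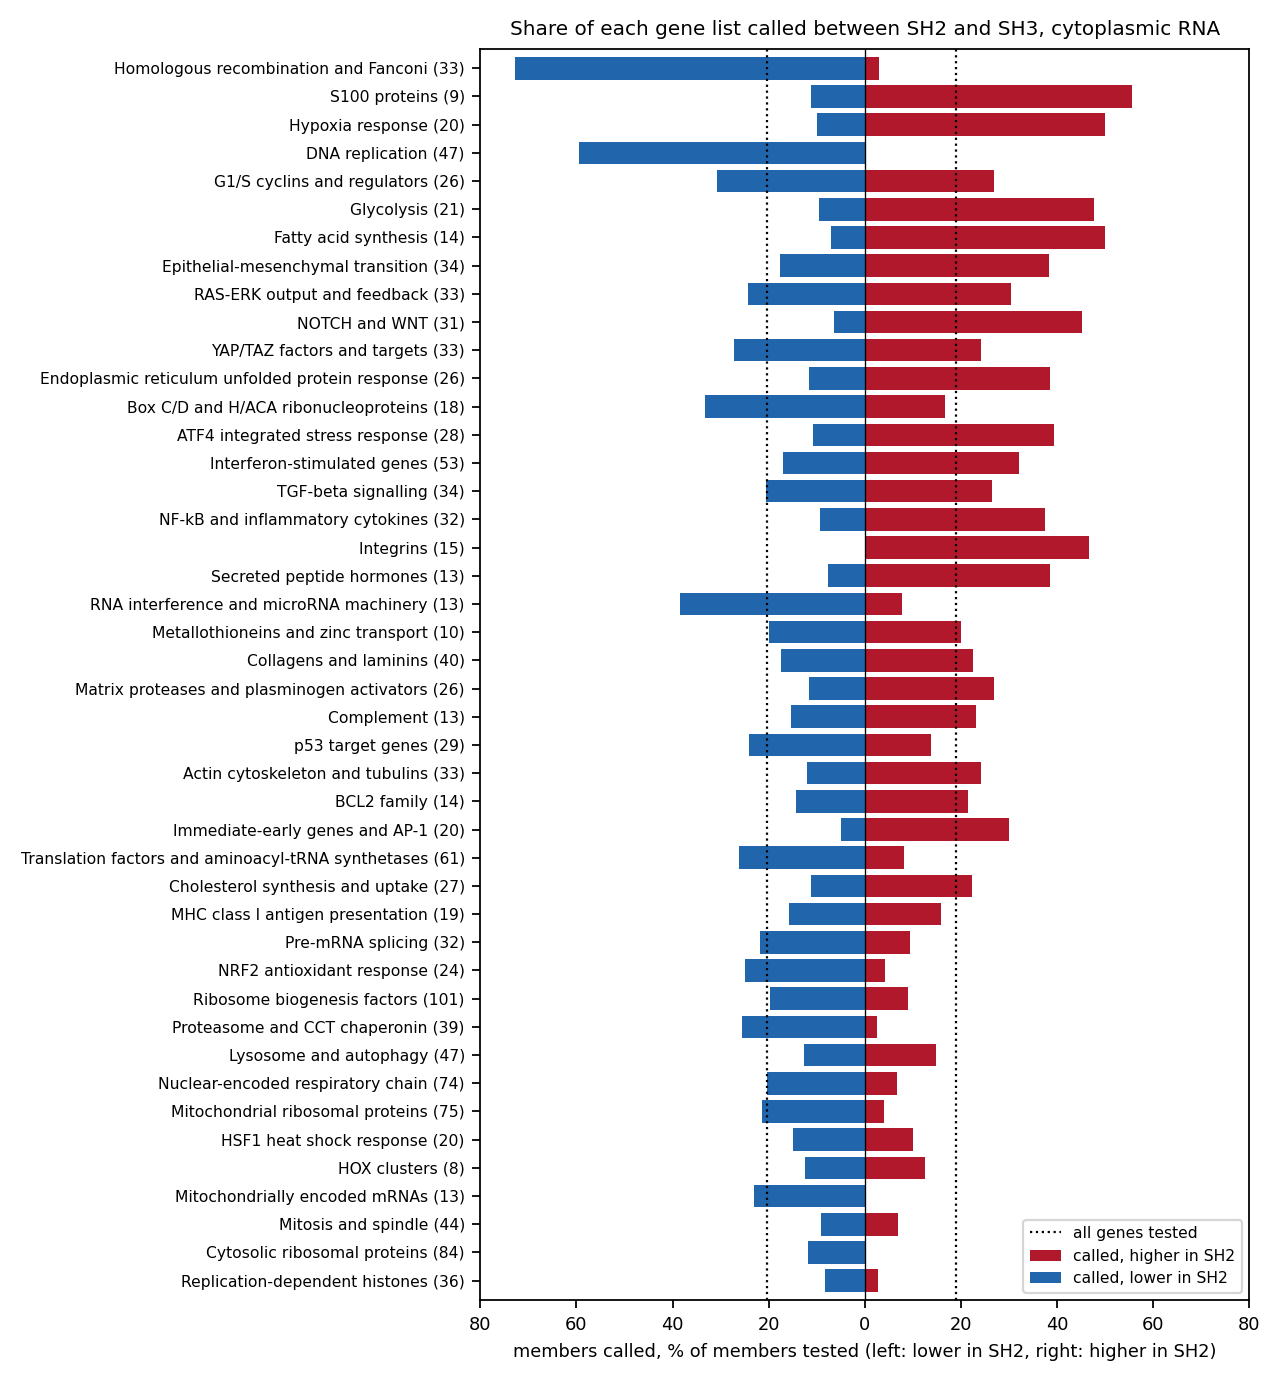
Share of the tested members of each gene list (number tested in brackets) called higher in SH2 (right) or lower in SH2 (left), in percent, with dotted lines at the shares over all genes tested, 18.9% and 20.4%. The replication and recombination lists extend furthest to the left, and the S100, hypoxia, fatty acid and glycolysis lists furthest to the right.

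DNA replication requires the licensing of origins by the origin recognition complex, CDC6, CDT1 and the MCM helicase, followed by the GINS complex, primase, polymerases and clamp loader at the fork. Of 47 replication genes tested, 28 were called lower in SH2 and 0 higher, and their median log2 difference was -0.38 against 0.0047 over all genes tested. Among origin licensing genes 10 of 16 were lower, among fork genes 17 of 25, and among nucleotide supply genes 1 of 6. MCM7, a helicase subunit, was at 41.1, 52.3 and 61.8 CPM in SH2, at 206, 198 and 219 CPM in SH3, and at 195, 238 and 248 CPM in SC. Its log2 difference was -2.00 (SE 0.14, adjusted p = 2.16e-07), and every SH2 library was below every other library. MCM2 was at 56.0, 49.9 and 61.1 CPM against 112, 110 and 116 CPM, with SC at 99.3, 107 and 122 CPM, a log2 difference of -1.01 (SE 0.10). MCM4 (-0.69), MCM6 (-0.61) and MCM5 (-0.55) were lower too, while MCM3 was at -0.24 and not called.

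The fork genes with the largest differences, POLE2 and GINS1, were below SC with both hairpins and lowest in SH2. POLE2, the second subunit of polymerase epsilon, was at 11.8, 10.0 and 9.25 CPM in SH2, at 24.7, 22.7 and 22.8 CPM in SH3, and at 42.9, 54.1 and 48.2 CPM in SC. Its log2 difference was -1.17 (SE 0.13, adjusted p = 1.03e-05). GINS1 was at 3.96, 4.40 and 5.23 CPM, 11.1, 9.06 and 9.96 CPM, and 21.3, 24.7 and 25.2 CPM in the same order, a log2 difference of -1.15 (SE 0.15). Primase and polymerase alpha (PRIM1 -0.77, POLA1 -0.53, POLA2 -0.91), clamp loader subunits (RFC4 -0.89, RFC3 -0.88) and the clamp PCNA (-0.28) were called lower in SH2. The nucleotide enzymes TYMS (0.35), TK1 (0.09) and RRM2 (0.02) were not called, and RRM1 (-0.39) was called lower. The mean log2 CPM over the 47 genes was 4.95 ± 0.08 (SD) in SH2, 5.37 ± 0.04 in SH3 and 5.94 ± 0.13 in SC, 3 libraries each. The count of lower genes was 18 without SH3 replicate 1 and 16 without SH3 replicate 3, and 1 gene was called higher without SC replicate 1 or SH2 replicate 2.

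E2F factors are textbook regulators of replication genes. The promoters of MCM7, MCM2, POLE2 and GINS1 are shown because these were the 4 replication genes with the largest differences between the hairpins. Relative to SC they differed: SH3 was near SC for MCM7 and MCM2 and below it for POLE2 and GINS1. Each promoter is 300 bases, from 250 before to 50 after the first start that RefSeq lists for the gene in GRCh38.p14. Capitals mark the E2F-type letters TTTCCCGC, TTTCGCGC, TTTGCCGC or TTTGGCGC on either strand; palindromic overlaps, as in MCM2, are marked as 1 run.
MCM7, chr7:100101348-100101647, minus strand: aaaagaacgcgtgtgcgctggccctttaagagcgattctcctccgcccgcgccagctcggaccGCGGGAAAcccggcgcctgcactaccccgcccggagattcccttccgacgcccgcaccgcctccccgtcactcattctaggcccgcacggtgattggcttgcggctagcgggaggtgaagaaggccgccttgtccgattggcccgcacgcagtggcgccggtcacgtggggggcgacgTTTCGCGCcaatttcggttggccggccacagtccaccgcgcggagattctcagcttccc
MCM2, chr3:127598161-127598460, plus strand: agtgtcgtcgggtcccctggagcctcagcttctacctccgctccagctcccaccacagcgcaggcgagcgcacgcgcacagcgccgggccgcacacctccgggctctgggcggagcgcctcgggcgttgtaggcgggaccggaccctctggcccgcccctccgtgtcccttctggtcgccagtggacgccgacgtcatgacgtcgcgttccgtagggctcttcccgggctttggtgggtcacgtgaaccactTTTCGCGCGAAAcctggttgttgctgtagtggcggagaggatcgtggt
POLE2, chr14:49688165-49688464, minus strand: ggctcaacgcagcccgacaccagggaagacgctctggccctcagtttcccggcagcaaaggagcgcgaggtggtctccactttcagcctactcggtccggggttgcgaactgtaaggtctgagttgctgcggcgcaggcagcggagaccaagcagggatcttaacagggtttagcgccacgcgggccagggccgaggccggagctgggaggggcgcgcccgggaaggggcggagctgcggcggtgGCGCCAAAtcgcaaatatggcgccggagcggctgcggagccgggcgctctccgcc
GINS1, chr20:25407423-25407722, plus strand: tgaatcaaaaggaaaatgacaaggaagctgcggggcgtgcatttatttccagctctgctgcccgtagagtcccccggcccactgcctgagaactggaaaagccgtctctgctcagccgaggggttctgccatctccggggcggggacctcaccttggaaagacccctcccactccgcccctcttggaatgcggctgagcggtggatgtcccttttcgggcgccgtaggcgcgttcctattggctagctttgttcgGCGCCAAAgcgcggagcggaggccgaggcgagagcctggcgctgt
All 4 windows hold at least 1 match, and those of MCM7 and MCM2 hold 2. Among replication genes called lower, 13 of the 23 with a promoter in the table hold such letters (56.5%), against 3.33% of all 27305 promoters and 5.41% of the promoters of the genes tested. Over all replication members the share was 45% (18 of 40), and over the mitosis list 7.69% (3 of 39). In the recombination list described next, which was also lower, 25% of the lower members held the letters (5 of 20). Over all its tested members the share was 24.1% (7 of 29). A match describes letters and is no evidence of a bound factor. The E2F genes themselves differed in both directions: E2F1 (-0.54), E2F5 (-1.08) and E2F6 (-1.10) were lower in SH2, E2F3 (0.41) and E2F4 (0.69) were higher, and E2F2, E2F7, E2F8 and TFDP1 were not called.

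Homologous recombination repairs double-strand breaks from the sister chromatid, and the Fanconi proteins unlink crosslinked strands. Of 33 genes of this list tested, 24 were called lower in SH2 and 1 higher, with a median log2 difference of -0.44. BLM, the Bloom helicase, was at 8.71, 10.8 and 10.2 CPM in SH2, at 25.2, 20.1 and 26.4 CPM in SH3, and at 31.8, 37.8 and 38.3 CPM in SC. Its log2 difference was -1.27 (SE 0.14, adjusted p = 1.05e-05). RBBP8 (CtIP, which starts end resection) was at 66.5, 73.6 and 56.4 against 123, 127 and 127 CPM, a log2 difference of -0.94 (SE 0.11). BRCA2, a mediator of strand exchange, was at 25.3, 32.7 and 22.9 against 56.9, 42.7 and 51.2 CPM, and WEE1, the kinase that restrains entry into mitosis, at 26.7, 23.7 and 30.6 against 55.8, 40.5 and 58.0 CPM. None of these 4 genes overlapped between the hairpins, and SC was above both. The checkpoint genes CHEK1 (-0.70), ATM (-0.38), CHEK2 (-0.37) and ATR (-0.35) were lower as well. BRCA1 (-0.11) and BARD1 (0.21), which form a heterodimer, were not called, and FANCF (0.49) was the 1 member called higher. Without SH3 replicate 1, and likewise without SH3 replicate 3, 15 members were called lower.

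By contrast with replication, the mitosis list showed few calls. Of 44 mitotic kinases, cyclins, spindle and anaphase genes tested, 3 were higher and 4 lower in SH2, and the median log2 difference was 0.08. The 4 lower genes were NEK2 (-0.61), CENPF (-0.59), KIF18A (-0.53) and PLK1 (-0.49), and the 3 higher genes were TPX2 (0.43), UBE2C (0.40) and FZR1 (0.30). PLK1, the polo kinase, was at 37.7, 31.5 and 46.4 CPM in SH2 and at 62.4, 43.3 and 56.3 CPM in SH3, which overlap, against 139, 203 and 203 CPM in SC. Which mitotic genes passed depended on single libraries: the lower count was 1 without SH2 replicate 2, SH2 replicate 3, SH3 replicate 1 or SH3 replicate 3 and 2 without SH2 replicate 1. The higher count was 0 when SH2 replicate 1, SH2 replicate 3 or SH3 replicate 2 was left out, 1 for SH3 replicate 3, 5 for SH3 replicate 1 and 7 for SH2 replicate 2. MKI67 (0.08), CCNB1 (0.19), CDK1 (-0.18) and TOP2A (0.05), chosen for naming after their values were seen, were not called. The mean log2 CPM over the list was 5.24 ± 0.20 (SD) in SH2 and 5.22 ± 0.26 in SH3, against 6.56 ± 0.28 in SC. Replication-dependent histone genes, which are multi-copy and share reads, were called in 4 of 36 cases: H4C2 (0.48) higher, and H2BC11 (-0.50), H2BC21 (-0.49) and H2BC5 (-0.33) lower. The lower histone count was 0 without SH2 replicate 1 or 2 or SH3 replicate 1 or 3, 1 without SH3 replicate 2 and 6 without SC replicate 1, and the H4C2 call was lost without SH2 replicate 3 or SH3 replicate 1 or 3.

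Regulators of the G1/S transition differed one by one and without a common sign. Of 26 tested, 7 were higher and 8 lower, with a median of 0.0047. CCND1, cyclin D1, was at 219, 176 and 259 CPM in SH2, at 460, 464 and 517 CPM in SH3, and at 433, 385 and 442 CPM in SC, a log2 difference of -1.14 (SE 0.13, adjusted p = 1.38e-05). Its relatives CCND2 and CCND3 were higher in SH2: CCND2 was at 9.61, 9.44 and 11.2 against 5.76, 4.82 and 6.28 CPM, and CCND3 differed by 0.63. The retinoblastoma family genes RB1 (-0.81), RBL1 (-0.38) and RBL2 (-0.49), which hold E2F in check, were all lower. CDKN1A, the p21 inhibitor and a p53 target, was at 122, 111 and 133 CPM in SH2, at 28.8, 29.3 and 26.3 CPM in SH3, and at 52.3, 36.6 and 42.5 CPM in SC. SH2 was above and SH3 below every SC library for CDKN1A, a log2 difference of 2.11 (SE 0.13, adjusted p = 8.93e-08).

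p53 target genes did not follow CDKN1A. Of 29 genes of the p53 list tested, 4 were higher and 7 lower, with a median of -0.06. The share called was 37.9%, against 39.3% over all genes. GADD45A (0.93), TNFRSF10B (0.79) and PMAIP1 (0.67) were the other higher members. CCNG1, cyclin G1, was at 10.5, 10.3 and 10.2 CPM in SH2 against 31.0, 21.6 and 29.9 CPM in SH3, and MDM2, the ubiquitin ligase of p53, at 23.2, 28.0 and 21.4 against 61.8, 47.4 and 54.7 CPM. Both were below SC with each hairpin. SESN1 (-1.09), MDM4 (-0.55), BBC3 (-0.53), FAS (-0.47) and FBXO32 (-0.47) completed the lower members. Without SH2 replicate 2 the higher count was 7.

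**Figure D3:**
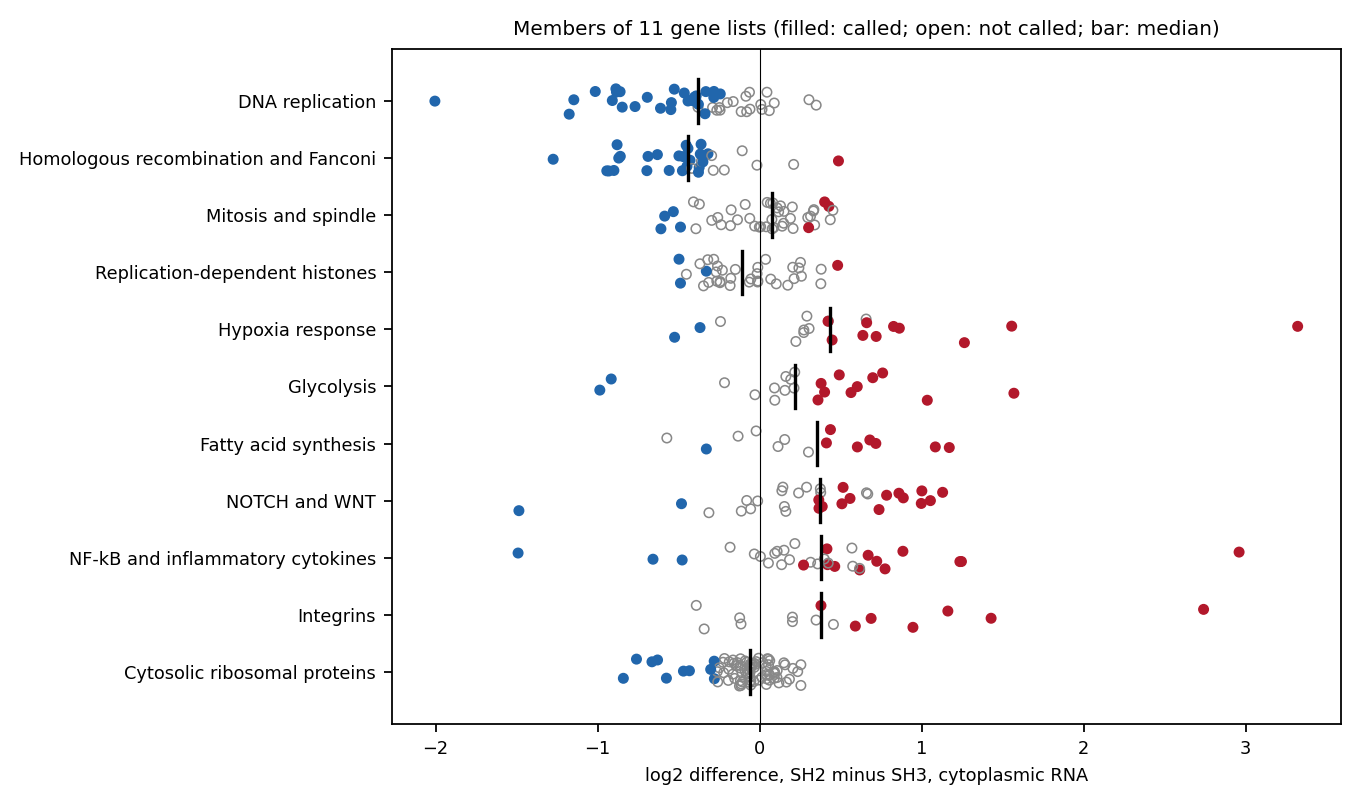
Log2 difference, SH2 minus SH3, of each tested member of 11 gene lists; filled points were called, open points were not, and the bar is the list's median. The replication and recombination medians lie at -0.38 and -0.44, the hypoxia median at 0.44, and the mitosis and ribosomal protein medians at 0.08 and -0.06.

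Hypoxia-inducible factors activate genes of glucose use, matrix crosslinking and pH control when oxygen is low. Of 20 genes of the hypoxia list, 10 were higher and 2 lower in SH2, with a median of 0.44. All 9 called targets of 14 were higher (median 0.66), while of 6 regulators 1 was higher (EPAS1, 0.45) and 2 lower (ARNT, -0.52, and VHL, -0.37). HIF1A was at 0.27 and not called. LOX, the lysyl oxidase that crosslinks collagen, was at 22.2, 14.8 and 15.0 CPM in SH2, at 7.60, 5.33 and 4.75 CPM in SH3, and at 48.2, 25.1 and 28.3 CPM in SC, a log2 difference of 1.56 (SE 0.26, adjusted p = 3.60e-04). BHLHE40, a transcriptional repressor, was at 162, 148 and 167 against 64.1, 65.0 and 69.4 CPM, with SC between at 112, 86.7 and 90.1 CPM. P4HA2, a collagen prolyl hydroxylase, was at 122, 81.2 and 90.1 against 64.8, 47.1 and 49.6 CPM, and BNIP3L, a mitophagy receptor, at 127, 112 and 106 against 64.9, 65.4 and 63.6 CPM. For each of these genes all SH2 libraries were above all SH3 libraries. CA9, carbonic anhydrase 9, was called higher near the limit of detection, at 0.20, 0.38 and 0.36 CPM in SH2 and at 0, 0.08 and 0 CPM in SH3, so no fold is given for it. The list's mean log2 CPM was 5.15 ± 0.06 (SD) in SH2, 4.65 ± 0.03 in SH3 and 5.21 ± 0.02 in SC, so SH2 was close to SC and SH3 was below both.

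The core letters of a hypoxia response element, ACGTG or GCGTG on either strand, are shown in capitals in the promoters of the first 2 of these targets, from the same RefSeq table.
LOX, chr5:122078210-122078509, minus strand: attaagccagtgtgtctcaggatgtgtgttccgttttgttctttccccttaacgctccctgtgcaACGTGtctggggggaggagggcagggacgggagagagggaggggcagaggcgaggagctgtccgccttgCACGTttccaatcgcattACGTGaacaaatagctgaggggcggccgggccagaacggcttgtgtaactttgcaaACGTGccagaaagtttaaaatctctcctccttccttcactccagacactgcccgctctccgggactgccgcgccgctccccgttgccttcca
BHLHE40, chr3:4979187-4979486, plus strand: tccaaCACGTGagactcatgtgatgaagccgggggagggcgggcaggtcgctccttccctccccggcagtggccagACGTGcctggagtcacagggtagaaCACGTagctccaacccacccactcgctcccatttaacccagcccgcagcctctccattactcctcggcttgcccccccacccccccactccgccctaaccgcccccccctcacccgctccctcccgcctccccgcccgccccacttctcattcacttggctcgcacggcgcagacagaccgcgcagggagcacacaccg
Each window holds 4 matches. The P4HA2 window holds none. Of the 8 higher members of the hypoxia list with a promoter in the table, 7 hold the letters (87.5%), against 48.4% of all promoters and 62.8% of the promoters of genes tested. Of replication genes called lower 18 of 23 hold them too (78.3%), so these short letters do not set the hypoxia genes apart.

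Glycolysis followed the same direction. Of 21 genes, 10 were higher and 2 lower (median 0.22), and all 4 transporters were higher: the glucose transporters SLC2A1 (1.03) and SLC2A3 (0.60) and the lactate transporters SLC16A1 (0.76) and SLC16A3 (0.56). SLC2A1 was at 566, 450 and 525 CPM in SH2 and at 252, 263 and 236 CPM in SH3 (adjusted p = 4.01e-06 in the edgeR test). Its SC libraries were at 260, 259 and 266 CPM, so SH3 was at the SC level and SH2 above it. The list as a whole stood otherwise. Its mean log2 CPM was 7.36 ± 0.06 (SD) in SH2, 7.09 ± 0.04 in SH3 and 7.43 ± 0.08 in SC, so SH2 was close to SC. Among enzymes ALDOC was at 5.18, 5.64 and 5.51 against 1.96, 1.13 and 2.38 CPM, a log2 difference of 1.57 (SE 0.24), and PGK1 (0.70), PFKL (0.49), PFKP (0.40), GAPDH (0.38) and PKM (0.36) were higher. The 2 lower members were LDHB, at 75.4, 95.0 and 87.4 against 163, 174 and 173 CPM, and ENO2, at 20.1, 16.7 and 18.6 against 36.8, 33.8 and 33.9 CPM. LDHA (0.09), the isoform that favours lactate production, was not called.

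**Figure D4:**
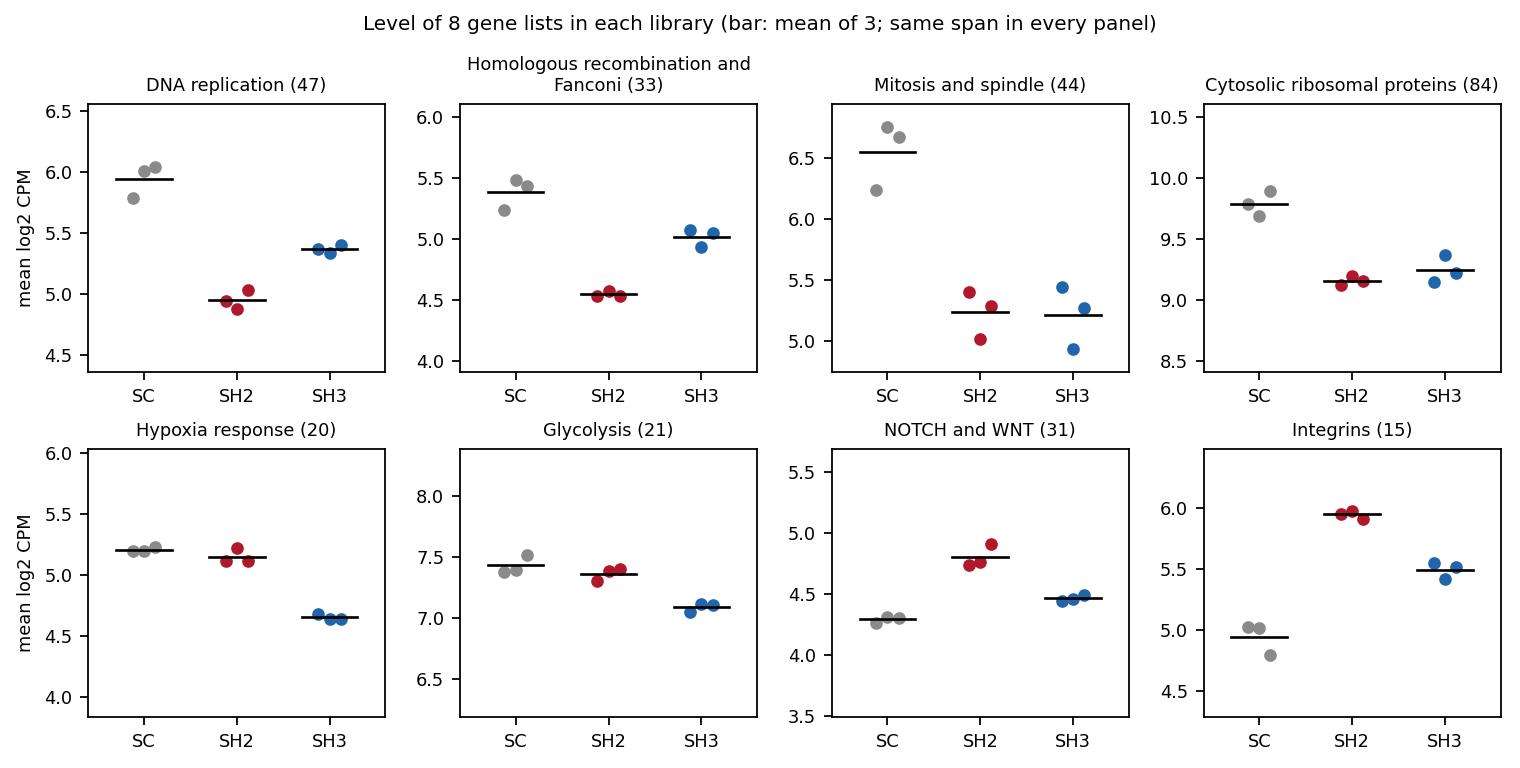
Mean log2 CPM over the tested members of 8 gene lists in each of the 9 RNA libraries, with the mean of 3 libraries as a bar; every panel has the same span. Replication stood at 4.95 in SH2 and 5.37 in SH3, below 5.94 in SC, and hypoxia at 5.15 in SH2 and 5.21 in SC, above 4.65 in SH3.

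In fatty acid synthesis more genes were higher than lower in SH2, while few sterol enzymes were called. SREBP factors drive these genes, and the INSIG proteins hold their escort SCAP in the endoplasmic reticulum. Of 14 fatty acid synthesis genes 7 were higher and 1 lower (median 0.36). ELOVL6, an elongase, was at 26.5, 32.8 and 28.9 CPM in SH2, at 14.2, 12.5 and 12.5 CPM in SH3, and at 35.4, 37.9 and 33.4 CPM in SC, a log2 difference of 1.17 (SE 0.12, adjusted p = 5.37e-06). ACSL3, an acyl-CoA synthetase, was at 129, 150 and 119 against 60.6, 61.5 and 65.7 CPM, and SREBF1 was at 105, 116 and 127 against 67.0, 76.9 and 73.9 CPM. ACACA (-0.33) was the 1 lower member, a call lost without SH2 replicate 1, SH3 replicate 1 or SH3 replicate 3, and FASN (-0.02) was not called. Of 27 cholesterol genes 6 were higher and 3 lower, a share of 33.3% that is below the 39.3% of all genes. The higher members included INSIG1, STARD4, SREBF2 and HMGCS1, and 17 of 20 enzymes were not called. INSIG1 was at 57.1, 45.6 and 53.4 CPM in SH2, at 10.8, 12.3 and 9.16 CPM in SH3, and at 44.4, 43.6 and 35.1 CPM in SC, a log2 difference of 2.27 (SE 0.14). INSIG2 went the other way from INSIG1, at 7.53, 8.01 and 5.37 against 16.1, 14.2 and 13.5 CPM.

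In the epithelial-mesenchymal transition list, mesenchymal genes were mostly higher in SH2. All 10 tested mesenchymal genes of this list were called, 8 higher and 2 lower, with a median of 0.58. The separate set of 10 line markers given earlier, which shares some of these genes, had 5 higher and 2 lower. The mean log2 CPM of the whole list was 5.69 ± 0.11 (SD) in SH2 and 5.57 ± 0.05 in SH3, which overlap, and 5.71 ± 0.10 in SC. The higher ones were CAV2 (1.41), S100A4 (1.01), CDH11 (1.01), FN1 (0.71), CD44 (0.59), CAV1 (0.57), VIM (0.48) and MSN (0.42), and the lower ones were CDH2 (-1.66), which is N-cadherin and was under 2 CPM in both hairpins, and AXL (-0.56). CAV2 was at 103, 98.4 and 113 CPM in SH2, at 34.0, 41.4 and 42.5 CPM in SH3, and at 58.3, 59.8 and 67.8 CPM in SC (adjusted p = 6.24e-07). Of 19 epithelial genes 3 were higher (DSP, KRT7 and JUP) and 4 lower (OCLN, KRT81, TJP1 and PKP2). The factors SNAI1 (0.66) and SNAI2 (0.79) were higher, and ZEB1 (-0.21) was not called. Without SH3 replicate 3 the lower members of this whole list fell from 6 to 3.

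Of 15 integrin subunits 7 were higher and 0 lower (median 0.38): ITGB8, ITGA2, ITGA6, ITGB5 and ITGA3, with ITGA11 and ITGB7 under 1 CPM. ITGA2, a collagen-binding subunit, was at 840, 1009 and 653 CPM in SH2, at 460, 459 and 380 CPM in SH3, and at 420, 330 and 284 CPM in SC, a log2 difference of 0.95 (SE 0.16). ITGB8 was at 12.7, 17 and 17.7 against 6.56, 4.74 and 6.28 CPM. ITGB1 (-0.34), the shared partner of many alpha chains, was not called. The list's mean log2 CPM was 5.94 ± 0.03 (SD) in SH2, 5.49 ± 0.07 in SH3 and 4.94 ± 0.13 in SC, in that order without overlap of the hairpins. Among proteases of the matrix 7 of 26 genes were higher and 3 lower, a share of 38.5% that is close to the background. Besides MMP1, the membrane collagenase MMP14 was at 784, 658 and 691 against 352, 280 and 233 CPM. The plasminogen activator PLAT was at 402, 337 and 317 against 125, 86.4 and 75.1 CPM, and the urokinase receptor PLAUR at 230, 229 and 224 against 96.4, 107 and 90.1 CPM. For these genes all SH2 libraries were above all SC and SH3 libraries, and SH3 overlapped SC. The lower count of the list was 1 without SH2 replicate 2, SH2 replicate 3 or SH3 replicate 1. Of 9 S100 proteins 5 were higher and 1, S100A13 (-0.61), was lower (median 0.43); S100A4 was at 507, 486 and 519 against 257, 245 and 250 CPM, and S100A10 at 297, 312 and 283 against 158, 159 and 185 CPM.

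NOTCH receptors are activated by ligands of the JAG family on neighbouring cells, and HES and HEY genes are their targets. Of 31 NOTCH and WNT genes 14 were higher and 2 lower (median 0.37). On the NOTCH side 6 of 10 were higher and 0 lower: the ligands JAG1 (1.13) and JAG2 (0.86), the receptor NOTCH1 (0.56), and the targets HES1 (0.89), HEY1 (0.78) and, at about 1 CPM or less, HEY2. JAG1 was at 658, 737 and 676 CPM in SH2, at 328, 334 and 285 CPM in SH3, and at 149, 158 and 130 CPM in SC, with no overlap among the 3 treatments (adjusted p = 2.67e-06). HES1 was at 43.7, 37.4 and 40.1 CPM in SH2, while SH3 (18, 24.1 and 23.3 CPM) overlapped SC (17.2, 22.6 and 21.6 CPM). On the WNT side 8 of 21 were higher, among them the ligand WNT5A (1.00) and the receptor FZD8, at 187, 272 and 252 against 123, 125 and 108 CPM. LGR5 (-1.49) and FZD2 (-0.48) were lower, and CTNNB1 (-0.01) was not called. The count of higher genes fell to 8 without SH2 replicate 3 and to 9 without SH3 replicate 1, and the JAG2 call was lost without SH2 replicate 1 or 3 or SH3 replicate 2.

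Other signalling lists had calls in both directions, with medians near 0. Of 33 RAS-ERK genes 10 were higher and 8 lower (median 0.03). NRAS was at 94.0, 85.3 and 88.6 CPM in SH2, at 28.6, 30.9 and 29.6 CPM in SH3, and at 70.9, 76.7 and 73.8 CPM in SC, a log2 difference of 1.59 (SE 0.09, adjusted p = 5.77e-08). HRAS (0.22) was not called. AREG, the EGFR ligand amphiregulin, was at 167, 144 and 137 against 69.4, 63.9 and 60.9 CPM, both above SC at 18.9, 27.6 and 17.3 CPM. MET, the receptor of hepatocyte growth factor, was at 113, 121 and 84.9 against 243, 191 and 184 CPM. The ERK feedback genes DUSP4 (0.81), DUSP6 (0.69) and SPRY4 (0.82) were higher, and SPRY2 (-0.80) was lower. Of 33 YAP/TAZ genes 8 were higher and 9 lower (median -0.04); the partner TEAD4 was at 25.8, 33.8 and 35.8 against 69.5, 72.6 and 80.5 CPM, and the targets CCN1 (0.07) and CCN2 (-0.18) were not called. Of 34 TGF-beta genes 9 were higher and 7 lower (median -0.01), with 4 lower without SH3 replicate 3. INHBA, an activin subunit, was at 53.5, 28.3 and 29.5 against 15.6, 10.5 and 9.31 CPM, and LTBP2, a latent TGF-beta binding protein, at 12, 15 and 16.9 against 38.9, 35.3 and 35.9 CPM.

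Stress pathways differed in parts. The integrated stress response raises ATF4, whose targets supply amino acids and redox capacity. Of 28 genes of this list 11 were higher and 3 lower (median 0.20), and ATF4 mRNA, which is regulated mainly in translation, was at 0.01 and not called. DDIT4, an inhibitor of mTORC1, was at 155, 149 and 174 against 74.3, 70.2 and 79.3 CPM, with SC at 79.0, 112 and 115 CPM. SLC7A11, the cystine transporter, was at 25, 29.95 and 28.3 against 15.6, 11.8 and 13.8 CPM. The serine synthesis enzymes PHGDH (19.1, 15.8 and 23.5 against 36.1, 32.6 and 41.3 CPM) and PSPH (18.8, 19.8 and 18.1 against 38.1, 38.8 and 39.1 CPM) were lower, and their partner PSAT1 (0.21) was not called. Of 26 genes of the endoplasmic reticulum response 10 were higher and 3 lower (median 0.26). SEL1L, a subunit of the membrane ubiquitin ligase of that organelle, was at 112, 119 and 102 against 46.2, 43.3 and 39.3 CPM, a log2 difference of 1.37 (SE 0.12), and XBP1 at 180, 164 and 167 against 111, 120 and 111 CPM. The chaperone HSPA5 (0.02) was not called, and the list's higher count fell to 5 without SH2 replicate 1, 6 without SH3 replicate 2 and 5 without SH3 replicate 3.

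In the NRF2 list 1 of 24 genes was higher and 6 were lower, a share of 29.2%, below the background. TXNRD1, thioredoxin reductase, was at 84.4, 101 and 91.1 CPM in SH2, at 259, 241 and 253 CPM in SH3, and at 339, 312 and 320 CPM in SC, a log2 difference of -1.45 (SE 0.09, adjusted p = 1.41e-07). NFE2L2, the gene of NRF2, was at 84.8, 109 and 86.1 against 162, 149 and 161 CPM. The targets NQO1 (0.16), GCLM (0.09) and GCLC (-0.02) were not called. Of 20 heat shock genes 2 were higher and 3 lower, a share of 25% that is also below the background. The call of HSP90AB1 (0.26), 1 of the 2 higher, was lost without SH2 replicate 1, SH3 replicate 1 or SH3 replicate 3. BAG3, a co-chaperone, was at 198, 188 and 202 against 84.8, 89.8 and 82.1 CPM, with no overlap.

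Inflammatory cytokines were higher in SH2 on balance, with a wide spread between libraries. Of 32 genes of the NF-kB list 12 were higher and 3 lower (median 0.38). The higher cytokines were IL1B (2.96), CSF2 (1.25), CCL20 (1.24, at or under about 1 CPM), CXCL8 (0.88), CSF3 (0.77), LIF (0.72) and CXCL2 (0.67), and the lower were IL24 (-1.49), CSF1 (-0.66) and IL11 (-0.48). CSF2, the growth factor GM-CSF, was at 16.4, 11.5 and 10.6 against 6.40, 5.03 and 4.75 CPM. CXCL8 overlapped, at 22.1, 26.5 and 13.5 against 16.4, 8.22 and 8.97 CPM. Of the 5 NF-kB subunits 0 were called. The count of higher genes fell to 6 without SH2 replicate 1, to 5 without SH3 replicate 2 and to 4 without SH3 replicate 3. The lower count was 0 without SH2 replicate 3 or SH3 replicate 1 and 1 without SH2 replicate 2 or SH3 replicate 2. The calls of CXCL8 and IL24 were also lost with DESeq2.

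Of 53 interferon-stimulated genes 17 were higher and 9 lower (median 0.31), so members of the same response differed in opposite directions. OASL was at 50.6, 37.3 and 43.7 CPM in SH2, at 22.7, 16 and 27.1 CPM in SH3, and at 48.7, 42.5 and 39.2 CPM in SC. ISG15 (0.74), IFIT1 (0.97), OAS1 (0.91) and BST2 (0.97) were also higher, with overlapping groups for OAS1 and BST2. IFITM1, a membrane restriction factor, was at 2.27, 1.77 and 1.78 against 6.96, 4.66 and 5.33 CPM, and IFI6 at 7.84, 4.59 and 5.23 against 14.5, 11.7 and 11.1 CPM. STAT2 (-0.33), which carries the interferon signal, was lower. The higher count fell to 11 without SH3 replicate 2, and the lower count to 5 without SH2 replicate 3, SH3 replicate 1 or SH3 replicate 3. In MHC class I presentation 3 of 19 genes were higher and 3 lower (31.6%), and each count fell to 1 without SH3 replicate 3. The higher count was also 1 without SH2 replicate 1, and the lower count 1 without SH2 replicate 3 or SH3 replicate 2 and 0 without SH3 replicate 1. Of 13 secreted peptide hormones 5 were higher and 1, SCG5 (-1.31), was lower, a call lost with DESeq2 and without SH2 replicate 2, SH2 replicate 3, SH3 replicate 1 or SH3 replicate 2. Among the higher ones, SCG2 was at 7.49, 26.8 and 16.3 against 2.92, 4.28 and 4.6 CPM, and STC1, stanniocalcin, at 117, 125 and 102 against 52.5, 39.4 and 34.2 CPM.

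In the machinery around fibrillarin the log2 differences ran from -0.91 to 0.39. Fibrillarin sits in the box C/D particle with NOP56, NOP58 and SNU13, while box H/ACA particles carry out pseudouridylation. Of 18 genes of both particles 3 were higher and 6 lower (median -0.17), a share of 50% against 39.3% over all genes. These counts rested on single libraries, with 3 lower without SH2 replicate 1, SH3 replicate 2 or SH3 replicate 3 and 1 higher without SH2 replicate 3 or SH3 replicate 1. NOP56 and NOP58, both at -0.17, were not called. SNU13 was at 122, 118 and 123 CPM in SH2 and at 149, 166 and 160 CPM in SH3, a log2 difference of -0.38 (SE 0.09), and the assembly factor ZNHIT6 at 32.8, 36.4 and 30.7 against 48.2, 53.2 and 50.3 CPM. GAR1, of the H/ACA particle, was at 12.5, 19.4 and 10.2 against 27.1, 25.5 and 26.4 CPM.

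Of 101 ribosome biogenesis factors 9 were higher and 20 lower, a share of 28.7% against 39.3% over all genes. The lower count was 11 without SH2 replicate 1, 9 without SH2 replicate 3, 10 without SH3 replicate 2 and 8 without SH3 replicate 3, and the higher count 15 without SH3 replicate 2. UTP18, of the small subunit processome, was at 52.3, 57.9 and 50.4 CPM in SH2, at 133, 164 and 147 CPM in SH3, and at 126, 119 and 135 CPM in SC, a log2 difference of -1.46 (SE 0.10, adjusted p = 2.61e-07). LSG1, a GTPase of late 60S maturation, was at 40.7, 45.1 and 41.8 against 89.8, 95.1 and 96.4 CPM. NPM1, nucleophosmin, was at 504, 864 and 661 against 1187, 1412 and 1288 CPM, below SC at 1650, 1725 and 1811 CPM. Among genes of RNA polymerase I and the nucleolus 2 of 17 were called, NPM1 and RRN3 (-0.37), both lower. Cytosolic ribosomal protein genes, whose reads can be shared with processed pseudogenes, were called in 10 of 84 cases, all 10 lower in SH2 (11.9%, median -0.06), and 6 without SH3 replicate 2. RPS27 was at 191, 236 and 180 against 358, 371 and 358 CPM and RPS3A at 582, 711 and 587 against 1020, 1109 and 1056 CPM, each well below SC. The mean log2 CPM over the 84 genes was 9.16 ± 0.04 (SD) in SH2 and 9.25 ± 0.11 in SH3, which overlap, against 9.79 ± 0.10 in SC.

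Of 61 translation factors and aminoacyl-tRNA synthetases 5 were higher and 16 lower (median -0.11), a share of 34.4% against 39.3% over all genes. All 6 called synthetases of 20 were lower, a share of 30% that is also below the background. The higher count of the whole list was 2 without SH3 replicate 1 and 3 without SH3 replicate 3. EPRS1, which charges glutamate and proline tRNAs, was at 159, 177 and 126 against 364, 329 and 330 CPM, with SC between at 243, 236 and 217 CPM. FARSB was at 59.8, 82.1 and 61.1 against 135, 151 and 148 CPM. EIF2B4, a subunit of the exchange factor for eIF2, was at 32.7, 37.0 and 32.5 against 70.6, 83.9 and 74.2 CPM. The cap-binding factor EIF4E (-0.25) and the elongation factors EEF2 (0.17) and EEF1A1 (-0.09) were not called. Of 39 proteasome and CCT genes 1 was higher and 10 lower (28.2%).

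Mitochondrially encoded mRNAs leaned lower in SH2, and the nuclear lists of the organelle had small median differences with more members called lower than higher. All 13 mitochondrially encoded mRNAs had negative differences (median -0.43). The 3 called, 23.1% against 39.3% over all genes, were MT-CO1 (-0.71), MT-CO3 (-0.70) and MT-ND2 (-0.59). The mean log2 CPM of this list was 10.24 in SH2 and 10.67 in SH3, and the libraries overlapped. MT-CO1 was at 9218, 11926 and 8452 CPM in SH2, at 17842, 13900 and 16589 CPM in SH3, and at 32532, 18939 and 20331 CPM in SC. SH2 was below SH3 in every library for MT-CO1. Without SH2 replicate 3 its call was lost and 1 of the 13 genes was called, while without SC replicate 1 there were 9. In the nuclear genome 5 of 74 respiratory chain genes were higher and 15 lower (27% called, median -0.01), with 37 positive and 37 negative differences. Of 75 mitochondrial ribosomal protein genes 3 were higher and 16 lower (25.3% called, median -0.04). The mean log2 CPM was 6.30 in SH2 and 6.39 in SH3 for the respiratory chain. For the mitoribosomal list it was 5.41 and 5.54, and in neither nuclear list did the hairpins overlap. The higher mitoribosomal count was 0 when SH2 replicate 1 or SH3 replicate 3 was left out, 1 for SH3 replicate 1, 5 for SH3 replicate 2 and 6 for SH2 replicate 2. The respiratory chain's lower count was 9 without SH2 replicate 1, 8 without SH2 replicate 3 or SH3 replicate 1 and 7 without SH3 replicate 2 or 3, and its higher count was 3 without SH2 replicate 1 or 3 or SH3 replicate 1 or 3 and 11 without SH2 replicate 2. NDUFA5, of complex I, was at 10.5, 8.77 and 8.46 CPM in SH2, at 23.4, 26.9 and 26.9 CPM in SH3, and at 23.1, 28.6 and 29.7 CPM in SC. MRPL37 was at 66.2, 67.9 and 76.4 against 187, 212 and 207 CPM, with SC at 204, 195 and 223 CPM. In both genes SH3 overlapped SC and SH2 was lower.

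The autophagy and RNA interference genes gave further single-gene contrasts. BECN1, beclin 1, which starts autophagosome formation, was at 100, 112 and 107 CPM in SH2, at 26.3, 31.0 and 28.2 CPM in SH3, and at 120, 110 and 110 CPM in SC, a log2 difference of 1.90 (SE 0.10, adjusted p = 3.83e-08). ATG12, which is conjugated to ATG5, was low in SH2 instead, at 6.75, 6.96 and 5.73 against 18.2, 17.7 and 18.9 CPM, with SC at 19.9, 17.8 and 17.3 CPM. Of 47 lysosome and autophagy genes 7 were higher and 6 lower (27.7%), with 12 higher without SC replicate 1. Of 13 genes of RNA interference, the pathway that processes hairpins, 1 was higher and 5 lower, with 2 higher when SH2 replicate 1, SH2 replicate 3 or SH3 replicate 1 was left out. TNRC6A, the scaffold bound by Argonaute, was at 117, 102 and 102 against 228, 149 and 193 CPM, AGO2 (-0.41) was lower and DICER1 (0.45) was higher. The lower count of this list was 2 or 3 without SC replicate 3, SH2 replicate 1, SH2 replicate 3, SH3 replicate 1 or SH3 replicate 3.

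Footprints from the same lysates were read for the genes named from RNA. Of the 24 genes with the highest and lowest ratios 22 had enough footprint counts to be tested, 11 in each set. All 11 of the highest were called higher and all 11 of the lowest lower in footprints, against 12.1% and 11.6% of the 10345 genes tested there. Footprint log2 differences ran from 2.58 to 3.99 in the first set and from -3.33 to -1.89 in the second. For SLC25A24 the footprint log2 difference was 3.99 (SE 0.17) and for TMEM30A 3.90 (SE 0.16). RNA and footprint libraries come from the same lysates and are not independent replicates of a treatment. The 22 genes were also picked for the largest RNA differences, unlike the 10345 genes set beside them. Their agreement was therefore likely beforehand and gives no separate support. Over the lists, the 33 recombination genes gave 7 lower and 0 higher in footprints (median -0.42), and the replication list 9 lower and 2 higher of 46 (median -0.31). The hypoxia list gave 8 higher and 1 lower of 19 (median 0.48). Mitochondrially encoded mRNAs gave 9 lower of 13 with a median of -1.21. In other lists the counts of called genes differed from those in RNA. The SH2 and SH3 footprint libraries held 1662705 to 4464734 counts, against 23469830 to 27629488 in RNA. The part of this lower depth in the footprint counts was not tested. Immediate-early genes, 6 higher and 1 lower in RNA, gave 0 higher and 2 lower of 16. Cytosolic ribosomal proteins, 0 and 10 in RNA, gave 6 higher and 7 lower of 83. The proteasome and CCT list, 1 and 10 in RNA, gave 4 higher and 3 lower of 39, the BCL2 family, 3 and 2 in RNA, gave 0 higher and 3 lower of 14, and the respiratory chain gave 6 higher and 4 lower of 72. In the scatter of RNA against footprint differences all 22 genes lie in the 2 quadrants where both have the same sign.

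**Figure D5:**
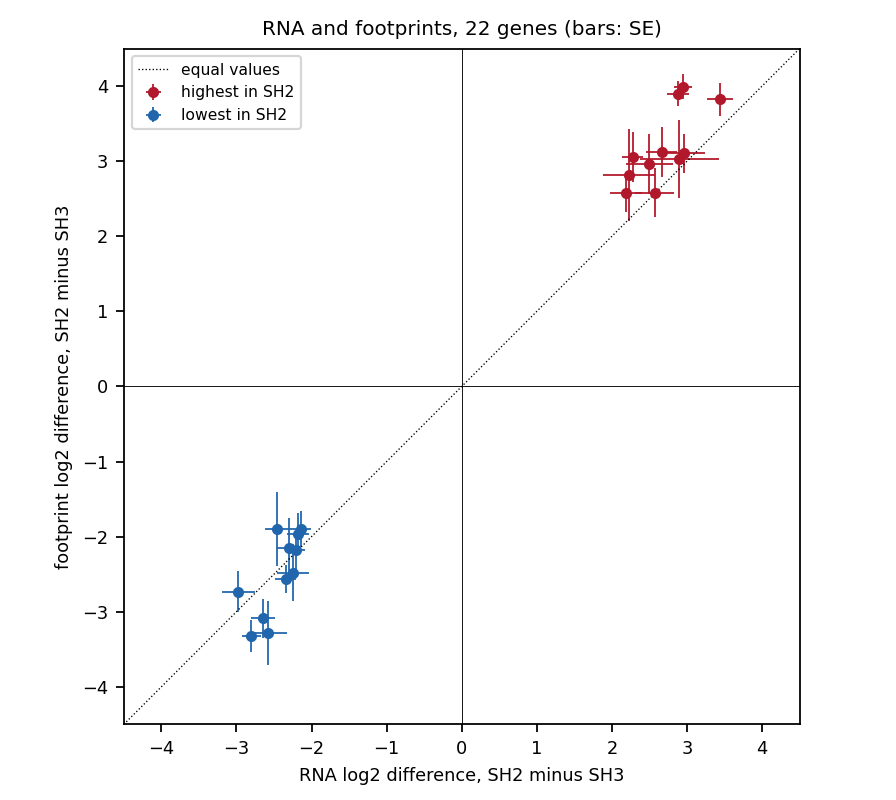
Log2 difference, SH2 minus SH3, in cytoplasmic RNA (x) and in footprints (y) for the 22 named genes tested in both, with bars of 1 SE and a dotted line of equal values. The highest set spans 2.58 to 3.99 and the lowest set -3.33 to -1.89 on the footprint axis.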

How the data were processed

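Cytoplasmic RNA of MDA-MB-231 cells was sequenced in 3 SC, 3 SH2 and 3 SH3 libraries. The authors deposited raw read counts per gene symbol; the submitters' processing notes name Bowtie 1.2.2 and DESeq2, and the counting tool, annotation and genome build are not given in the sources used here. All 9 RNA libraries, grouped by label, entered one edgeR 4.0.16 fit (R 4.3.3; filterByExpr, TMM, quasi-likelihood test, no covariate), from which SH2 minus SH3 was tested with Benjamini-Hochberg adjustment over 12710 genes at a threshold of 0.05. CPM are on TMM-scaled libraries, SE is the log2 difference over the square root of F, and list levels are mean log2 CPM with a prior count of 3. The 9 footprint libraries were fitted separately. The code was tested on simulated counts. Libraries of a group differed by more than sampling noise. Named genes were FBL, the 12 highest and 12 lowest called genes of at least 5 CPM without overlap, and up to 4 called members of at least 5 CPM per list with the largest absolute difference; further members complete a count or family and were chosen after their values were seen. The libraries and lists were chosen with earlier results of these data known. Alternatives were other scalings, filters and thresholds, DESeq2 1.42.0, a replicate block, and leaving out libraries.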

Additional observations from a re-analysis of the deposited data

How the results depend on the processing

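The number of genes called was 4993. It was 4995 with RLE size factors, 4874 with library totals, 5059 without a filter on low counts, 4872 with at least 1 CPM in 3 libraries, 5106 with DESeq2, and 4991 from the SH2 and SH3 libraries alone. It was 3152 at an adjusted p under 0.01, and 955 with an absolute log2 difference of at least 1 in addition, both by construction stricter. Leaving out 1 library gave 3726 (without SH3 replicate 3) to 5424 (without SC replicate 1). Leaving out the libraries of replicate number 1 in all 3 treatments, an alternative chosen after seeing the data, gave 4195. With the replicate number as a block 5780 genes were called. The labels do not say that a number marks a shared batch, and same-numbered SH2 and SH3 libraries had deviation correlations of 0.43, 0.04 and 0.24, so the numbers were not taken to pair the libraries; 4 of the 6 libraries correlated best with their own number. Of 190 named genes over 19 alternatives, 96 kept their call in all, 204 of 3610 values lost it, and 1 reversed: FBL, not called, at -0.25 without SH2 replicate 3. FBL passed the threshold at 1.18 without SH2 replicate 1 and at 1.16 without number 1 in all treatments. The causes were not tested. At this depth, genes under 1 CPM rest on few counts per library.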

Other observations

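Other gene groups of the cytoplasmic RNA were read in the same way. Of 40 collagens, laminins and matrix glycoproteins 9 were higher in SH2 and 7 lower, a share of 40% beside 39.3% over all genes tested. COL4A1, a basement membrane collagen, was at 134, 95.0 and 120 CPM in SH2 and at 61.0, 41.6 and 54.5 CPM in SH3. LAMA3, a laminin chain of epithelial basement membranes, was at 13.1, 21.6 and 14.9 against 47.1, 37.97 and 41.8 CPM, and COL6A3 at 26.8, 20.3 and 27.1 against 66.0, 53.9 and 61.6 CPM, so the matrix genes split between the hairpins. In the complement list 3 of 13 were higher (5 without SH2 replicate 2) and 2 lower, a share of 38.5%. The membrane inhibitors CD59 (0.96) and CD46 (-1.09) differed in opposite directions.

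Of 33 actin and tubulin genes 8 were higher and 4 lower (median 0.0047), a share of 36.4% against 39.3% over all genes tested. There were 4 or 5 higher without SH2 replicate 1, SH2 replicate 3 or any of the SH3 libraries. MYL9, a myosin light chain, was at 22.9, 21.2 and 23.3 CPM in SH2, at 61.7, 48.2 and 63.7 CPM in SH3, and at 66.7, 60.3 and 62.7 CPM in SC, a log2 difference of -1.37 (SE 0.12). TUBB6 was at 203, 163 and 207 against 100, 105 and 94.0 CPM. ACTB (0.14) was not called. Of 32 splicing genes 3 were higher (5 without SH2 replicate 2) and 7 lower, a share of 31.2%. Among the 7 lower ones 6 were hnRNP genes, including HNRNPH3 (-0.55) and HNRNPH1 (-0.48). Of 20 immediate-early genes 6 were higher (3 without SH3 replicate 2) and 1, JUND (-0.34), was lower, a share of 35%. FOS (-0.01) and EGR1 (0.04) were not called. In the BCL2 family 3 of 14 were higher (PMAIP1, BID and MCL1) and 2 lower (BBC3 and BCL2L1), a share of 35.7%. Of 10 metallothionein and zinc genes 2 were higher and 2 lower (40%), and 0 of the 4 metallothioneins were called. Of 8 HOX genes tested 1 was higher (HOXC9, under 1 CPM) and 1 lower (HOXB9), a share of 25%.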
